A study of Mus musculus with 40 samples.

Results

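The thyroid follicle genes described here are Tg, Slc5a5, Tshr, Pax8, Foxe1, Hhex, Duox2, Duoxa2 and Iyd, 9 of the 53647 genes in the count tables, and they were followed through 40 bulk RNA-seq libraries of the mouse larynx, trachea and esophagus. They were chosen by name, with their levels in these libraries already known, so their own values are given as a description with no test, and tests are kept for 15 other follicle genes and for genes of neighbouring tissues. Those lists were also chosen with earlier results of these data known, so the counts of calls in them are not independent support. All tissue came from FVB/N mice with no other allele or treatment named in the labels. Each tissue was sampled at 5 embryonic ages between E10.5 and E18.5, and P0 and adult in the larynx alone, whose E10.5 stage is named the primitive laryngopharynx. The methods state that tissue was pooled from several animals at each embryonic age, and that the adults were 6 to 8 weeks old, although a younger range is also given for them elsewhere. There were 16 larynx libraries, 12 trachea libraries and 12 esophagus libraries. A group held 2 libraries, apart from E15.5, where each tissue had 2 libraries whose names end in a short code and 2 whose names end in a sequencing index. The P0 and adult libraries were also of the index kind, so that 30 libraries were short-code and 10 were index libraries, and a difference between E18.5 and an age after birth cannot be told apart from the kind of library, whereas the larynx at E15.5, P0 and adult can be compared within index libraries.

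The thyroid arises from the floor of the pharynx, descends along the front of the neck and comes to rest against the upper trachea beside the larynx. Its follicle cells secrete thyroglobulin, bring in iodide and oxidise it onto tyrosines of thyroglobulin with the help of hydrogen peroxide, and take hormone from the stored protein under the control of thyrotropin. Nkx2-1, Pax8, Foxe1 and Hhex are the transcription factors that together mark thyroid progenitors, and each of them is also used in other embryonic cells.

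RefSeq promoters (GRCm38.p6, 250 bases before to 50 bases after the start site) were matched for 6 of the 9 genes. They were searched on both strands for CAAGTG, a core recognised by Nkx2-1, and for TGTTTAC, a core recognised by forkhead factors. CAAGTG was present in 1 of the 6, Iyd, at base -207 relative to the start site, and in 13.6% of all 32851 promoters. TGTTTAC was present in 0 of the 6 and in 3.65% of all promoters. A shorter core, CAAG, which lies within CAAGTG, was in 5 of the 6 and in 90.6% of all promoters. Iyd is shown because it held the searched core, which is in capitals. Duox2 and Duoxa2 are shown because they face away from each other with start sites 673 bases apart and were the pair of the 9 genes other than Tg and Iyd whose levels were most alike. Neither searched core is in those windows.
Iyd, chr10:3540024-3540323, plus strand: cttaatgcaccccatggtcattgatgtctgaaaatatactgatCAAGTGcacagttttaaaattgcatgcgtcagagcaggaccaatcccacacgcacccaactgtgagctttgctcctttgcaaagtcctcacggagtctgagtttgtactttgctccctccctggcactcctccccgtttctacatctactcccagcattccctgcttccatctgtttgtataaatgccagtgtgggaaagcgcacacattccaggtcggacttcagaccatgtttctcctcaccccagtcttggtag
Duox2, chr2:122298178-122298477, minus strand: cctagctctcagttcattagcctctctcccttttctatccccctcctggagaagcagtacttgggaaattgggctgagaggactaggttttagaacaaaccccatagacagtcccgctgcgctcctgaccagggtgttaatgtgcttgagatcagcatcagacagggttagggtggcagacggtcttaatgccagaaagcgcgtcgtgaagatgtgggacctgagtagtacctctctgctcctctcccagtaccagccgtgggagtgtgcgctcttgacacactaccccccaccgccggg
Duoxa2, chr2:122298650-122298949, plus strand: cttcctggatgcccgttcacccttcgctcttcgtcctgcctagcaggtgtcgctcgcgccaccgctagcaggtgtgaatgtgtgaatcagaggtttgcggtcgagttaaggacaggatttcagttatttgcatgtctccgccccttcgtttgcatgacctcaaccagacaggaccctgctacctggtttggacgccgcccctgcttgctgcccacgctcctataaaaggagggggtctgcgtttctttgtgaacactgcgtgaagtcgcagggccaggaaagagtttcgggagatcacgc

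Libraries held 3286403 to 35831491 expected counts, and levels are given as CPM, expected counts scaled to a common total after median-ratio scaling. A count of 3, taken as the floor, was worth 0.0635 to 0.733 CPM. Ribosomal RNA of mitochondria was 9.30% to 32.2% of a short-code library, against 0.196% or less of an index library. In 3 libraries, the second short-code libraries of the E11.5 larynx, the E15.5 trachea and the E15.5 larynx, 685 to 1108 of 1193 olfactory receptor genes had counts, against 80 to 321 in the other 37 libraries, and results that include these 3 were also computed without them. Nothing in the labels says that the 2 libraries of a group are separate litters, so p-values measure the spread between libraries.

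Thyroglobulin, the protein on which thyroid hormone is made, separated the libraries more widely than any other of the 9 genes. Tg (ENSMUSG00000053469, chr15:66542602-66722570, plus strand, GRCm39) ranged over 0.355 to 7.04 CPM in the 18 libraries of E10.5 to E13.5. At E15.5 the larynx held 3213 and 2815 CPM in the short-code libraries and 1204 and 184 CPM in the index libraries. The trachea at the same age held 1.75 and 1309 CPM in the short-code libraries and 6839 and 637 CPM in the index libraries. All 4 larynx libraries and 3 of the 4 trachea libraries were thus far above every earlier library, whereas the first short-code trachea library was within the range of the libraries of E10.5 to E13.5. The esophagus at E15.5 held 2.30 and 1.49 CPM in the short-code libraries and 5.03 and 175 CPM in the index libraries, and only the last of these was above all libraries of E10.5 to E13.5.

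Tg at E18.5 reached 12979 and 8843 CPM in tracheal libraries, 5225 and 2538 CPM in the esophagus and 29.2 and 894 CPM in the larynx. Each E18.5 library was above every library of E10.5 to E13.5, and the 2 larynx libraries of that age differed from each other by more than the tracheal ones did. At P0 the larynx held 4169.8 and 7329 CPM, and in the adult 6.15 and 3.64 CPM. The adult larynx therefore overlapped the E13.5 larynx, at 4.96 and 7.04 CPM. In bulk tissue fewer cells of a type and less RNA per cell cannot be told apart, so a low value can be a piece with little thyroid or a thyroid with little Tg.

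The largest share of a library taken by Tg was 1.00% of counts, in the first E18.5 trachea library, where Tg ranked number 6 among all genes. In the first index trachea library of E15.5 it took 0.899% and ranked number 4. Among the 20 groups the order of mean Tg was E18.5 trachea at 10911 CPM, P0 larynx at 5749 CPM, E18.5 esophagus at 3882 CPM, E15.5 index trachea at 3738 CPM and E15.5 short-code larynx at 3014 CPM. The E18.5 trachea did not overlap the P0 larynx, its next neighbour, and the 4 groups after it overlapped each in turn. The lowest mean, 0.42 CPM, was that of the E10.5 larynx. Sla, a protein-coding gene on the opposite strand inside the Tg locus, had 0.488 to 37.5 CPM, and no source names the strand setting of the counting.

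**Figure D1:**
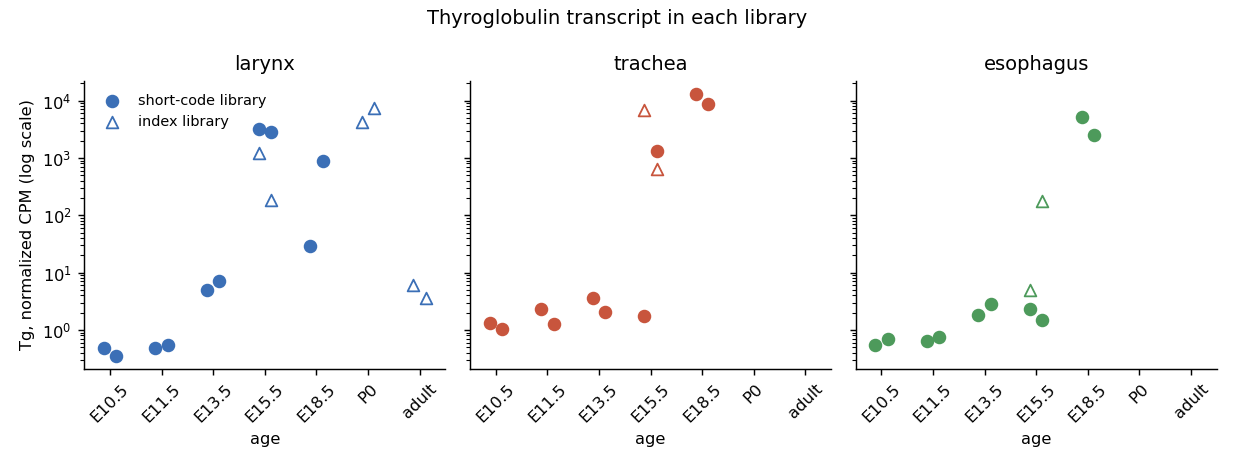
Tg in each of the 40 libraries, as normalized CPM on a log axis against age, for the larynx, trachea and esophagus. Filled circles are short-code libraries and open triangles index libraries; at E15.5 the trachea runs over 1.75 to 6839 CPM and the larynx over 184 to 3213 CPM, and the adult larynx lies at 6.15 and 3.64 CPM.

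Iodide handling genes did not all follow Tg. Iyd, the deiodinase that recovers iodide from iodotyrosines (ENSMUSG00000019762, chr10:3490233-3505854, plus strand), was closest to it, with Pearson's r = 0.92 on the log2(CPM + 1) scale across the 40 libraries, a description over libraries that share tissues and ages. Iyd had 0 to 1.81 CPM in the libraries of E10.5 to E13.5, with a count of 0 in 7 of those 18. At E15.5 it had 11.3 and 5.32 CPM in the short-code larynx libraries and 10.1 and 6.42 CPM in the index ones. The E15.5 trachea had 0.166 and 4.39 CPM in the short-code libraries and 68.7 and 20.2 CPM in the index libraries, so that the trachea library with little Tg also had little Iyd. That library was low in keratin genes of squamous epithelium as well. Krt5 was 0.25 CPM and Krt4 0.166 CPM there, against 37.3 and 292 CPM in the second short-code library. The part of epithelial content in its low Tg and Iyd was not tested. At E18.5 Iyd was 32.8 and 24.5 CPM in the trachea, 15.7 and 8.08 CPM in the esophagus and 0.224 and 2.16 CPM in the larynx. The larynx held 12.7 and 20.8 CPM at P0 and 0.33 and 0.199 CPM in the adult.

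Slc5a5, the sodium-iodide symporter of the basal membrane of follicle cells (ENSMUSG00000000792, chr8:71335533-71345402, minus strand), did not follow Tg in the short-code libraries. It reached 1 CPM in 6 of the 40 libraries, 5 of the 10 index libraries and 1 of the 30 short-code libraries. The E15.5 index libraries held 12.5 and 7.20 CPM in the trachea and 2.25 and 2.00 CPM in the larynx, and those of the P0 larynx 4.38 and 0.913 CPM. The highest of these, the first index trachea library, also had the highest Tg of its age, at 6839 CPM, and 5 of the 6 libraries at 1 CPM or more had at least 100 CPM of Tg. In the P0 larynx the order was the opposite, with 4.38 and 0.913 CPM of Slc5a5 where Tg was 4169.8 and 7329 CPM. Slc5a5 was 0.895 and 0.4 CPM in tracheal libraries of E18.5, where Tg was highest. The short-code library at 1 CPM or above was the first E18.5 larynx library, at 2.09 CPM, where Tg was 29.2 CPM. In 17 libraries Slc5a5 had fewer than 3 counts, so that its absence there cannot be read from these depths.

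Hydrogen peroxide for iodination comes from Duox2, a dual oxidase (ENSMUSG00000068452, chr2:122109728-122128930, minus strand), with its maturation factor Duoxa2 (ENSMUSG00000027225, chr2:122129380-122133366, plus strand). By group mean both were highest in the adult larynx, where Tg was 6.15 and 3.64 CPM, but Duoxa2 there overlapped the index trachea of E15.5, which reached 4.70 CPM. Duox2 held 20.4 and 30.9 CPM in the adult larynx, against 9.83 and 7.52 CPM in the P0 larynx, and the 2 groups did not overlap. Duoxa2 held 4.48 and 9.12 CPM in the adult larynx, against 1.99 and 1.81 CPM in the P0 larynx. The log2(CPM + 1) difference of adult from P0 larynx was 1.44 (SE 0.34) for Duox2 and 1.36 (SE 0.44) for Duoxa2, whereas for Tg it was -9.91 (SE 0.51).

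Both oxidase genes are also active in airway and squamous linings, and markers of squamous epithelium moved with them. The 6 squamous markers summed to 27069.7 and 19359.5 CPM in the adult larynx, against 3836 and 1922 CPM in the P0 larynx. All 6 were at 1 CPM or more in both adult libraries, and 6 and 5 of them were in the P0 libraries. Krt4 gave 11198 and 7480 CPM and Krt13 12808 and 8764 CPM of the adult sums. In the edgeR test used below, 1 of the 6 squamous markers was called higher in the adult and 0 lower. Of 7 airway markers 0 were called higher and 1 lower, where 3.44% of all genes rose and 2.57% fell. The part of either lining in the rise of Duox2 and Duoxa2 was not tested. The correlation between Duox2 and Duoxa2 across the 40 libraries was r = 0.86, against r = 0.61 between Duox2 and Tg. At E18.5 Duox2 was 4.30 and 7.51 CPM in the trachea, 3.61 and 16.5 CPM in the esophagus and 3.38 and 3.69 CPM in the larynx, so that the larynx lay below the trachea and the trachea and esophagus overlapped. The span of Duoxa2 overlaps that of Duoxa1, on the opposite strand, and Duox1 is a close paralog of Duox2, so that reads of these genes may have been divided between them.

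Tshr, the thyrotropin receptor (ENSMUSG00000020963, chr12:91351337-91517124, plus strand), was present at low level in all tissues and varied less than Tg. It lay at 0.133 to 1.57 CPM in the 18 libraries of E10.5 to E13.5 and reached 1 CPM in 3 of them. At E18.5 it had 3.64 and 5.79 CPM in the trachea, 3.86 and 2.21 CPM in the esophagus and 3.59 and 2.23 CPM in the larynx. The esophagus overlapped both other tissues, and the larynx lay below the trachea, by a margin of less than the spread within either. The first short-code trachea library of E15.5, with 1.75 CPM of Tg, held 4.33 CPM of Tshr.

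Of the transcription factors, Pax8 and Hhex were measured at the earliest age. Pax8, a paired-box factor of thyroid, kidney and the midbrain-hindbrain boundary (ENSMUSG00000026976, chr2:24309418-24365617, minus strand), was at 1.37 to 6.26 CPM in the 6 libraries of E10.5, when Tg was at most 1.302 CPM. At E11.5 it was 0.244 and 10.49 CPM in the larynx, 0.725 and 0.135 CPM in the trachea and 11.9 and 2.96 CPM in the esophagus. At E13.5 it was at most 1.24 CPM in all 6 libraries. It was high again where Tg was high, at 8.65, 6.48, 6.49 and 4.00 CPM in the 4 E15.5 larynx libraries and 19.9 and 16.98 CPM in tracheal libraries of E18.5. The adult larynx held 0.124 and 0.331 CPM.

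Markers of the midbrain and hindbrain, 7 genes among which Pax2, Pax5 and En1 act beside Pax8 in the brain, moved with early Pax8 at E11.5. In the larynx they summed to 0.733 and 30.7 CPM at E11.5, with 0 and 6 of the 7 at 1 CPM or more and En2, Pax2, Pax5, Otx2 and Gbx2 at 0 in the first library. In the esophagus of that age they summed to 22.2 and 1.27 CPM, with Otx2 at 0 in the first and Fgf8 in the second library, and in the trachea to 0.685 and 0.224 CPM. The E11.5 library with the higher Pax8 in each of the larynx and esophagus was also the one with more of these markers. At E10.5 they summed to 82.6 and 23.9 CPM in the larynx, where Pax8 was 2.30 and 6.26 CPM, so that the order of the libraries was the opposite. The second E11.5 larynx library is also one of the 3 with many olfactory receptor genes. The part of brain tissue in the early Pax8 was not tested.

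Hhex, a homeobox factor of thyroid, liver and blood vessels (ENSMUSG00000024986, chr19:37423258-37429179, plus strand), reached 1 CPM in 39 of the 40 libraries. It was 0.977 to 3.95 CPM in the libraries of E10.5 to E13.5. The highest values were 29.6 and 11.8 CPM in the E15.5 index trachea, against 1.91 and 2.12 CPM in the short-code trachea of that age. The P0 larynx held 7.44 and 8.98 CPM. In the E18.5 trachea, with the highest Tg, Hhex was 4.09 and 3.50 CPM, which overlapped the E13.5 trachea at 2.75 and 3.64 CPM. The 6 endothelial markers summed to 645 to 659 CPM in the E18.5 trachea and to 650 to 678 CPM in the E13.5 trachea. Their part in Hhex was not tested.

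Foxe1, a forkhead factor of thyroid and of squamous epithelia of the upper digestive tract (ENSMUSG00000070990, chr4:46343609-46346412, plus strand), was at 0 to 1.27 CPM in the libraries of E10.5 to E13.5. It was as high in the esophagus as in the trachea. At E15.5 the esophagus held 4.32 and 7.45 CPM in the short-code libraries and 9.31 and 18.8 CPM in the index ones, although 3 of these 4 libraries had Tg of at most 5.03 CPM. At E18.5 it held 9.58 and 16.8 CPM, against 13.0 and 6.34 CPM in the trachea. The adult larynx, low in Tg, held 10.9 and 8.71 CPM, against 5.80 and 4.89 CPM in the P0 larynx. The first short-code trachea library of E15.5 had 0 counts of Foxe1, which allows up to 3 counts.

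**Figure D2:**
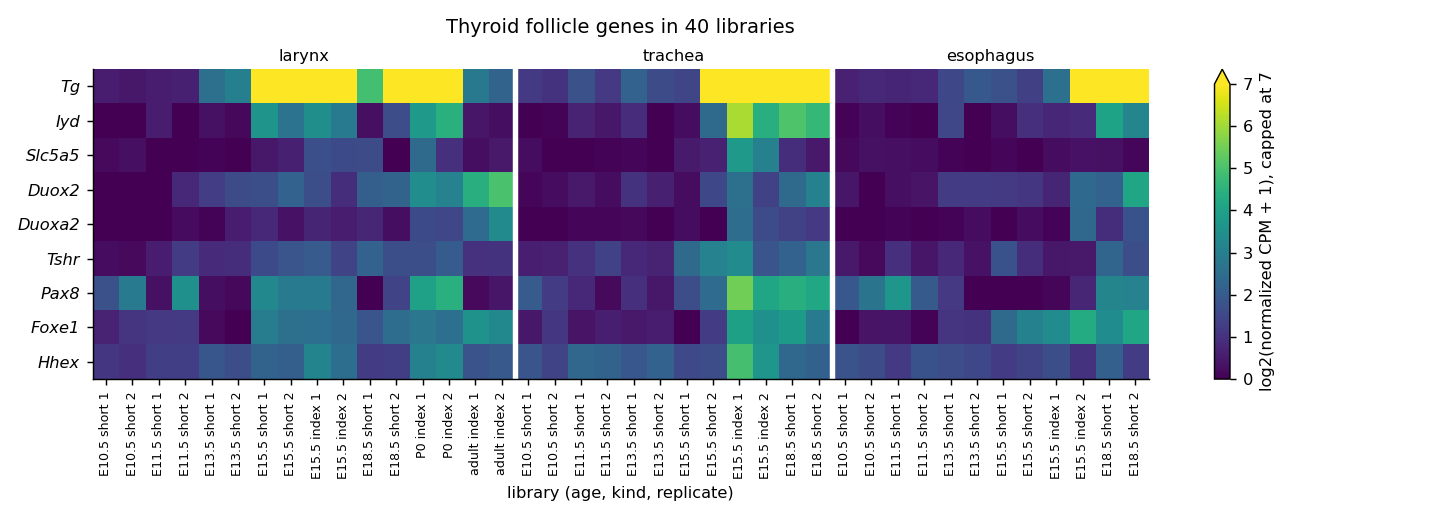
Log2(normalized CPM + 1) of the 9 genes in the 40 libraries, with tissues as blocks and libraries in order of age within each; the colour scale ends at 7 and higher values of Tg take its top colour. Tg and Iyd light up in many of the same libraries from E15.5 to P0. Exceptions include the second E15.5 index esophagus library, with Tg at 175 CPM and Iyd at 0.804 CPM, and the first E18.5 larynx library, with 29.2 and 0.224 CPM. Slc5a5 lights up mostly in index libraries, Pax8 also at E10.5 and E11.5, and Duox2, Duoxa2 and Foxe1 in the adult larynx, where Tg is 6.15 and 3.64 CPM.

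The age at which a gene first reached 1 CPM in every library of a tissue was found for 22 of the 27 pairs of gene and tissue. Pax8 met this at E10.5 in all 3 tissues and Hhex at E10.5 in the trachea and esophagus and E11.5 in the larynx. Tg met it at a low level, at E10.5 in the trachea and E13.5 in the larynx and esophagus. Iyd met it at E15.5 in the larynx and E18.5 in the trachea and esophagus. Tshr did so at E15.5 in the larynx, E11.5 in the trachea and E18.5 in the esophagus. Slc5a5 met it in no tissue, and Duoxa2 only in the trachea, at E18.5. At E15.5 a tissue had 4 libraries to pass and at other ages 2. Iyd in the E15.5 trachea fell short only in the first short-code library, at 0.166 CPM, with 4.39, 68.7 and 20.2 CPM in the others. Passing once did not mean staying above, as Pax8 was below 1 CPM in later libraries of all 3 tissues. For Tg the order of the tissues depended on the threshold. Every E10.5 library held at least 0.355 CPM, so at 0.3 CPM all 3 tissues passed at E10.5. At 3 CPM the larynx passed at E13.5 and the trachea and esophagus only at E18.5. The low early Tg did not overlap between the trachea and the rest. At E10.5 and E11.5 the 4 trachea libraries held 1.04 to 2.34 CPM, against at most 0.761 CPM in the 8 libraries of the larynx and esophagus.

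How far the genes kept a fixed proportion to Tg was read in the 15 libraries with at least 100 CPM of Tg. Per 1000 CPM of Tg, Pax8 was 2.30 to 3.41 CPM in the 3 short-code libraries of E15.5, 1.54 to 3.02 CPM in the 5 E18.5 libraries and 3.62 and 2.85 CPM in the 2 P0 libraries. These ranges overlap. Among index libraries of E15.5 Pax8 was 5.39 and 21.7 in the larynx, 6.41 and 26.1 in the trachea and 3.95 in the esophagus, so that all 5 were above every short-code and every P0 library. Iyd was also high per Tg in the second index libraries of E15.5, at 34.8 in the larynx and 31.7 in the trachea, and these 2 libraries had 184 and 637 CPM of Tg, less than the first ones. Dio1, the deiodinase that converts the prohormone to active hormone and no member of the list, was 1.20 to 5.70 in the 5 index libraries, 0.512 to 0.807 in the 3 short-code libraries of E15.5, 0.463 to 1.31 at E18.5 and 0.441 and 0.334 at P0.

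The proportion of Iyd to Tg overlapped between E15.5 and E18.5 in short-code libraries, whereas in index libraries of the larynx it was lower at P0 than at E15.5. Per 1000 CPM of Tg it was 1.89 to 3.52 in the short-code libraries of E15.5 and 2.42 to 3.18 at E18.5. At P0 it was 2.83 and 3.04, and these ranges overlap. All 5 index libraries of E15.5 were above them. Among index libraries of the larynx Iyd per 1000 CPM of Tg was 8.41 and 34.8 at E15.5, with no overlap with P0. Slc5a5 was 1.53 to 11.3 per 1000 CPM of Tg in the 5 index libraries of E15.5, against 0.118 to 0.434 in the 3 short-code libraries of the same age. At E18.5 it was 0 to 0.0689. Since E18.5 had only short-code libraries and P0 only index libraries, a change of the proportion between these ages cannot be told apart from the kind of library. The CPM per kilobase of exon, which allows genes to be compared, put Tg at a mean of 1228 in the E18.5 trachea, Iyd at 11.0, Foxe1 at 3.44, Pax8 at 2.56, Duoxa2 at 0.887, Duox2 at 0.872, Hhex at 0.75, Tshr at 0.651 and Slc5a5 at 0.221 (n = 2 libraries).

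**Figure D3:**
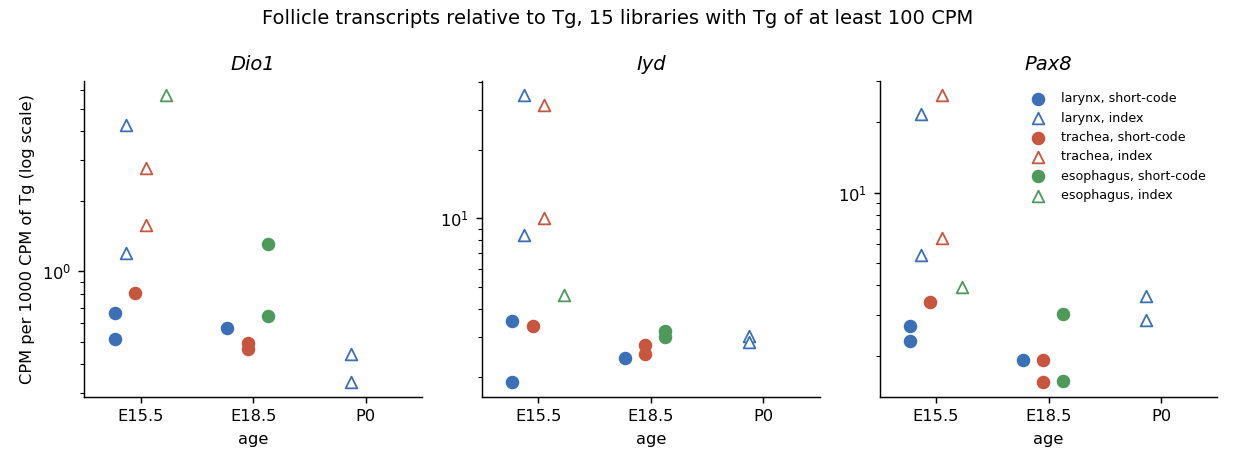
CPM of Dio1, Iyd and Pax8 per 1000 CPM of Tg on a log axis against age, one point for each of the 15 libraries with Tg of at least 100 CPM. Open triangles are index libraries and filled circles short-code libraries; Pax8 is at 3.95 to 26.1 in the 5 index libraries of E15.5, 1.54 to 3.02 at E18.5 and 3.62 and 2.85 at P0.

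Genes of the follicle outside the list were tested between E18.5 and E13.5 in each tissue with edgeR's quasi-likelihood test on all 40 libraries, at a Benjamini-Hochberg adjusted p under 0.05 over 36495 genes. Both ages had only short-code libraries. In the trachea 3 of 15 rose and 0 fell, where 6.9% of all genes rose and 4.97% fell. Dio1 had 6.01 and 4.35 CPM at E18.5, against 0.0787 and 0 CPM at E13.5 (log2 fold change 6.51, SE 1.03, adjusted p = 6.9e-05). Kcne2, a potassium channel subunit of follicle cells, had 0.895 and 2.10 CPM at E18.5 and no count at E13.5, at least 8.67-fold higher over the floor of 3 counts. Glis3, a zinc finger factor of the thyroid, rose by a log2 fold change of 2.09 (SE 0.61). Glis3 was not called without either E13.5 library or the second E18.5 library (adjusted p = 0.105 to 0.177), and Kcne2 not without the first E13.5 library (adjusted p = 0.055).

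In the esophagus 4 of the 15 rose and 0 fell, where 6.68% of all genes rose and 4.34% fell. Esophageal Dio1 was 3.36 and 3.32 CPM at E18.5, against 0.0442 and 0 CPM at E13.5 (log2 fold change 6.89, SE 1.16, adjusted p = 0.00019). Cdh16, a cadherin of thyroid and kidney epithelium, had 21.8 and 8.34 CPM at E18.5, against 1.02 and 0.319 CPM at E13.5 (log2 fold change 4.48, SE 1.05, adjusted p = 0.0047). Duox1 and Duoxa1 also rose, by 3.15 and 3.31 on the log2 scale. The count was 2 without the first and 1 without the second E13.5 library, and 3 and 2 without the first and second E18.5 library. Cdh16 lost its call without the second E13.5 library (adjusted p = 0.082) and without the first E18.5 library (adjusted p = 0.057), and Duox1 and Duoxa1 lost theirs without any library but the first of E18.5 (adjusted p = 0.105 to 0.168). Of 6 squamous markers 3 rose in the same comparison, and the 6 summed to 5824 and 10668 CPM at E18.5, against 125.7 and 106.7 CPM at E13.5. At 1 CPM or more were 5 and 6 of them at E18.5, against 4 and 4 at E13.5, with Sprr3 at 0 in both E13.5 libraries, and their part in the rise of Duox1 and Duoxa1 was not tested. Dio1 was called in the esophagus and trachea under every alternative run for it.

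In the larynx 2 of the 15 rose and 1 fell, where 9.43% of all genes passed, 5.91% higher and 3.52% lower. Duox1 had 5.00 and 13.49 CPM in the E18.5 larynx, against 0.732 and 0.222 CPM in the E13.5 larynx (log2 fold change 4.20, SE 0.99, adjusted p = 0.0057). Duoxa1 rose by 4.78 on the log2 scale (SE 1.08). All 6 squamous markers rose in the same comparison, and they summed to 2608 and 6162 CPM at E18.5, against 28.0 and 15.97 CPM at E13.5. At 1 CPM or more were 5 and 6 of them at E18.5, against 2 and 2 at E13.5, with Sprr3 at 0 in both E13.5 libraries, and their part was not tested. Lrp2, megalin, which takes up thyroglobulin, fell by 3.34 on the log2 scale (SE 0.93, adjusted p = 0.021). Leaving out a single library gave 0 calls without the second E13.5 library and 2 without any other. Duoxa1 was not called without either E13.5 library (adjusted p = 0.058 and 0.068), Duox1 not without the second E13.5 or the second E18.5 library (adjusted p = 0.109 and 0.093), and Lrp2 not without the second E13.5 or the first E18.5 library (adjusted p = 0.155 and 0.244). The median log2 fold change of the 15 genes was 1.75 in the trachea, 1.65 in the esophagus and -0.09 in the larynx, against 0 over all genes in each. All 3 comparisons rest on separate libraries.

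Whether the change with age itself differed between tissues was tested as an interaction, and with edgeR 0 of 36495 genes passed between the trachea and esophagus and 0 between the larynx and trachea. At an unadjusted p under 0.05 there were 829 and 1345 genes, and DESeq2 called 19 and 91. Among the 15 follicle genes edgeR found 0 and 5 at an unadjusted p under 0.05, all 5 lower in the larynx, and DESeq2 called 0 in both. A difference between tissues in the change of these 15 genes from E13.5 to E18.5 was therefore not shown. The tests leave out the other ages, so they cannot show when a gene turned on in a tissue.

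**Figure D4:**
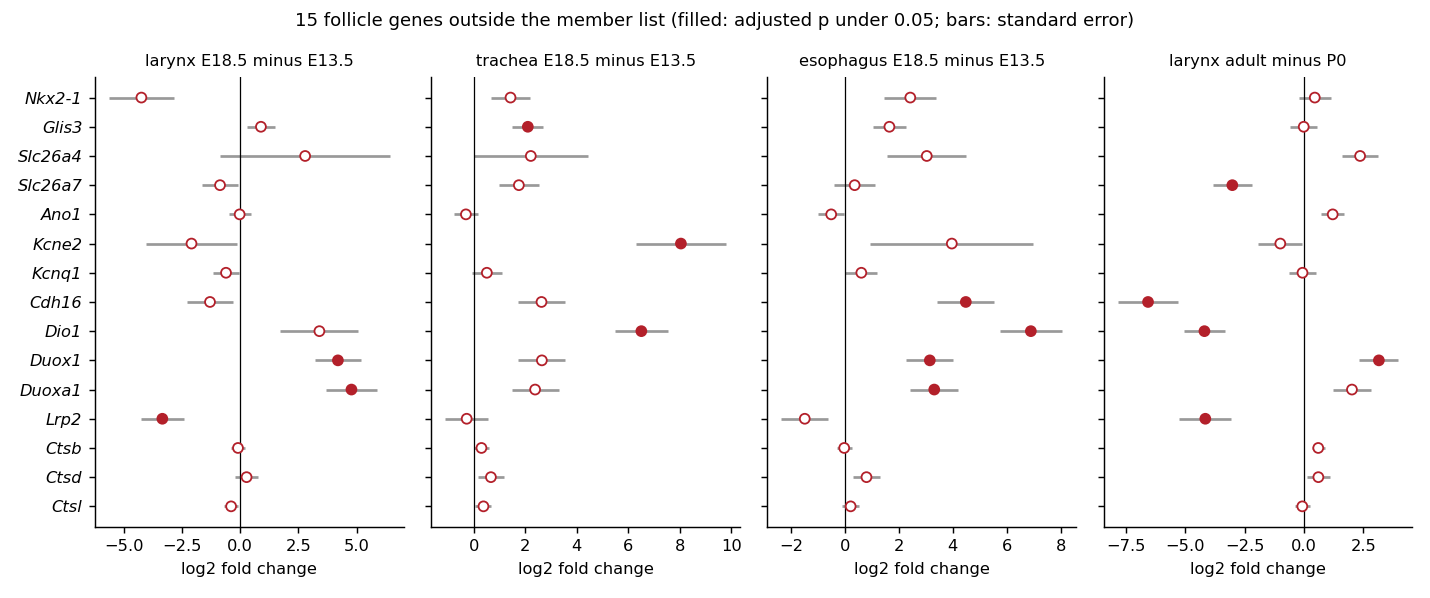
Log2 fold changes of 15 follicle genes outside the list of 9, for E18.5 minus E13.5 in the larynx, trachea and esophagus and for adult minus P0 in the larynx. Bars are standard errors, and filled points passed an adjusted p under 0.05 in edgeR: 2 higher and 1 lower in the larynx, 3 and 4 higher in the trachea and esophagus, and 1 higher and 4 lower in the adult larynx.

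Between the larynx and trachea at E18.5, all of the 9 genes but Slc5a5 were lower in the larynx with no overlap of the groups. With 2 libraries in each group such separation can arise by chance, and its share over all genes is not given here. Tg was 29.2 and 894 CPM in the larynx, against 12979 and 8843 CPM in the trachea. Of the 15 other genes 2 were lower and 0 higher in the larynx, where 0.233% of all genes passed, 0.197% lower and 0.0356% higher. Nkx2-1, the homeobox factor of thyroid and airway, was at 0 and 0.127 CPM in the larynx, a total of 2 counts, against 5.24 and 4.45 CPM in the trachea (log2 fold change -6.03, SE 1.25, adjusted p = 0.029). Dio1 was at 0.0748 and 0.509 CPM in the larynx, against 6.01 and 4.35 CPM in the trachea (log2 fold change -4.05, SE 0.82, adjusted p = 0.02). No call held without any single one of the 4 libraries, and with the replicate number as a block 1 of the 2 held, Nkx2-1. Nkx2-1 is an airway gene too, and 2 of 7 airway markers were lower in the same comparison. The 7 summed to 453 and 1424 CPM in the larynx, against 4050.2 and 12134 CPM in the trachea, with 4 and 5 of them at 1 CPM or more in the larynx libraries, all 7 in the trachea libraries, and Sftpb at 0 in both larynx libraries. Their part was not tested.

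Tg was 12979 and 8843 CPM in the trachea, against 5225 and 2538 CPM in the esophagus, groups that did not overlap, and the log2(CPM + 1) difference was 1.56 (SE 0.59). Of the 15 other genes 0 passed in edgeR and 0 in DESeq2, with 1 at an unadjusted p under 0.05, where 0.00274% of all genes passed, a single gene. Dio1 differed by 0.63 (SE 0.62, adjusted p = 1.00). Kcne2, at 4.08 (SE 1.22), was the gene with an unadjusted p under 0.05 (adjusted p = 1.00), a name given after its value was seen.

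In the larynx around birth only index libraries were compared. Between P0 and E15.5, 0 of the 15 genes passed in edgeR and 0 in DESeq2, with 4 higher and 0 lower at P0 at an unadjusted p under 0.05, where 1.77% of all genes passed, 1.28% higher and 0.493% lower. Tg, at 4169.8 and 7329 CPM at P0, against 1204 and 184 CPM at E15.5, did not overlap.

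In the adult larynx 4 of the 15 fell and 1 rose against P0, where 2.57% of all genes fell and 3.44% rose. Cdh16 held 0.0825 and 0.132 CPM in the adult, against 8.40 and 13.6 CPM at P0 (log2 fold change -6.57, SE 1.28, adjusted p = 0.002). The log2 fold change was -4.19 (SE 0.88) for Dio1, -4.16 (SE 1.10) for Lrp2 and -3.02 (SE 0.82) for Slc26a7, an anion transporter of follicle cells. Duox1, the other dual oxidase, rose, at 73.0 and 62.6 CPM in the adult, against 9.34 and 5.84 CPM at P0 (log2 fold change 3.16, SE 0.82, adjusted p = 0.02). Nkx2-1 was 16.3 and 20.5 CPM in the adult, against 10.8 and 16.1 CPM at P0, and did not pass (adjusted p = 0.92). Leaving out one library gave 0 to 2 calls, 2 without either P0 library and 1 and 0 without the first and second adult library, with Duox1, Lrp2 and Slc26a7 called in none.

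Genes that respond to or handle thyroid hormone outside the gland were counted beside the follicle genes. Of 11 such genes, 5 rose and 1 fell at E18.5 against E13.5 in the trachea, 6 rose and 1 fell in the esophagus and 7 rose and 0 fell in the larynx, where 6.9%, 6.68% and 5.91% of all genes rose and 4.97%, 4.34% and 3.52% fell. Dio2, the deiodinase that makes active hormone inside target cells, had 79.2 and 99.9 CPM in the E18.5 trachea, against 6.37 and 6.59 CPM in the E13.5 trachea (log2 fold change 3.79, SE 0.56). Its fold change was 3.75 in the esophagus and 3.79 in the larynx. Klf9, a zinc finger gene induced by the hormone receptors, rose by 3.22, 3.28 and 2.70 in the trachea, esophagus and larynx, and Thrb, a receptor of the hormone, by 1.91, 2.05 and 1.48. Ttr, a carrier of the hormone made in liver and choroid plexus, fell in the trachea and esophagus by 5.25 and 6.57. In both comparisons 6 of 8 liver markers fell as well. The 8 summed to 167.5 and 356 CPM in the E18.5 trachea, against 1876 and 73.9 CPM at E13.5, and to 52.5 and 47.9 CPM in the E18.5 esophagus, against 2301 and 242 CPM at E13.5. The second E13.5 trachea library had a lower sum than either E18.5 trachea library. As a sum, the fall in the trachea thus rested on the first E13.5 library. In the trachea 4 and 2 of the 8 markers were at 1 CPM or more at E18.5, against 8 and 6 at E13.5, with Alb and Apoa2 at 0 in both E18.5 libraries. In the esophagus 4 and 1 were, against 8 and 8, with Fgb at 0 in both E18.5 libraries. Their part in the fall of Ttr was not tested. Thra, the other receptor, was level, with log2 fold changes of -0.05, 0.04 and 0.02 (adjusted p = 1.00 in each). The fall of Ttr was not called without the first E13.5 library or either E18.5 library of the same tissue. The rise of Thrb lost its call without single libraries in the trachea (adjusted p = 0.059 without the second E13.5 library) and in the larynx, with 0.062 to 0.263 over its 4 libraries.

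Thrsp and Klf9 were also read in E15.5 libraries with little Tg, a choice made after their values were seen. Thrsp, a lipogenic gene that the hormone induces in liver, was at 510 CPM in the first short-code trachea library of E15.5, which held 1.75 CPM of Tg, and at 69.1 CPM in the second, which held 1309 CPM. In the short-code esophagus of that age, with Tg of 2.30 and 1.49 CPM, Thrsp was 154 and 123 CPM and Klf9 67.4 and 58.7 CPM. In the index trachea, with Tg of 6839 and 637 CPM, Thrsp was 1.38 and 0.656 CPM. Over all tissues at E15.5 Thrsp was at 41.0 CPM or more in the short-code libraries and at 20.8 CPM or less in the index libraries, so that it moved with the kind of library, whose part was not tested. In the larynx Thrsp was higher at P0, at 29.3 and 23.4 CPM, than at E15.5, at 2.64 and 0.563 CPM in index libraries (log2 fold change 4.04, adjusted p = 0.011). With both kinds of library put together at E15.5 that difference turned to -1.07 (adjusted p = 0.934). It also lost its call without either E15.5 library or the first P0 library (adjusted p = 0.054, 0.344 and 0.064).

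Parathyroid and C cell genes varied with the piece in a way that Tg alone did not set. Pth, the hormone of the parathyroid, which lies against the thyroid, was 197 and 0.339 CPM in the index trachea libraries of E15.5, whose Tg was 6839 and 637 CPM. In the E18.5 trachea it was 49.7 and 0.0999 CPM, although Tg was 12979 and 8843 CPM in the same libraries. In the E18.5 esophagus it was 45.5 and 188 CPM. Gcm2, the factor that defines the parathyroid, was at 0 in the second E18.5 trachea library and in both E18.5 larynx libraries, and it was 0.511 CPM in the first E18.5 trachea library. Pth was also 28.4 CPM in the first E13.5 esophagus library and 23.3 CPM in the first E13.5 trachea library, where Tg was 1.85 and 3.58 CPM.

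Calca, whose transcript encodes calcitonin in the C cells of the thyroid and a peptide of sensory neurons, was 95.7 and 100.4 CPM in the P0 larynx, against 4.59 and 2.00 CPM in the E15.5 index larynx (log2 fold change 4.89, SE 0.84, adjusted p = 0.0046), a call lost without the first or the second E15.5 library (adjusted p = 0.057 and 0.201). It fell to 0.784 and 0.431 CPM in the adult larynx (log2 fold change -7.34 against P0, SE 0.97, adjusted p = 8.6e-05). At E18.5 it was 0.524 and 1.15 CPM in the larynx, against 15.53 and 20.1 CPM in the trachea (log2 fold change -4.38, SE 0.91, adjusted p = 0.032). The larynx to trachea call was lost without any single one of the 4 libraries and with the replicate block (adjusted p = 0.062). Of the 8 C cell genes 1 rose and 0 fell at P0, where 1.28% of all genes rose and 0.493% fell. In the adult larynx 1 rose, Tph1, and 1 fell, where 3.44% of all genes rose and 2.57% fell. At E18.5 the larynx had 2 lower and 0 higher than the trachea, where 0.197% of all genes were lower and 0.0356% higher.

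**Figure D5:**
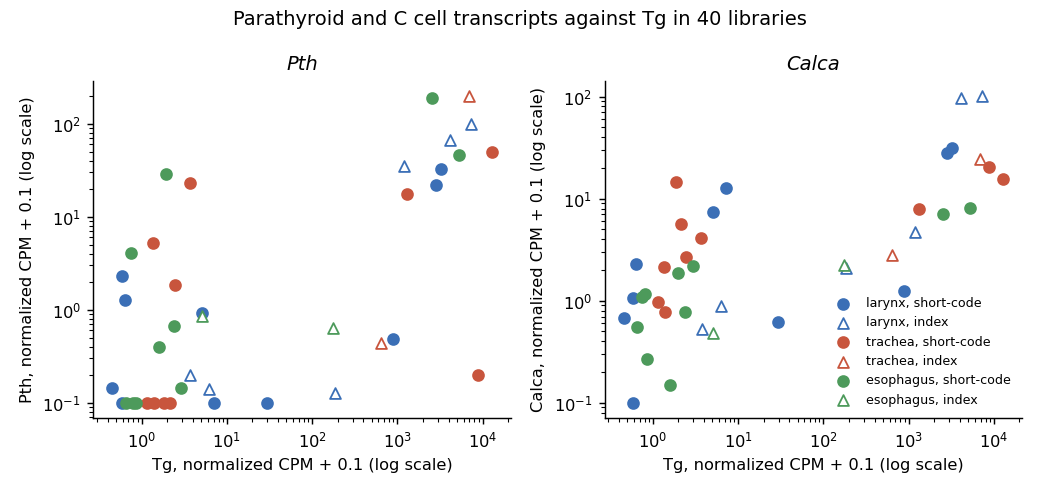
Pth and Calca against Tg in the 40 libraries, each as normalized CPM + 0.1 on log axes, with short-code libraries as filled circles and index libraries as open triangles. At Tg above 1000 CPM Pth is at 17.6 to 197 CPM in all libraries but 1, the second E18.5 trachea library at 0.0999 CPM.

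The genes whose levels were most like Tg were searched among 16581 genes by Pearson's r of log2(CPM + 1) over the 40 libraries, given as a description. The first outside the list of 9 was Dio1, at r = 0.91. It was followed by Napsa, Kcnh3, Asgr1, Ager, AU021092, Prlr, Fam180a, Kcnk1, Agr2, Thbs3, Gjb1, Spdef, Muc5b and Tmem213, at r = 0.90 to 0.83. Dio1 had a median of 1.84 CPM in the 15 libraries with at least 100 CPM of Tg, against 0.0423 CPM in the other 25. Muc5b, the mucin of airway glands, had 541 CPM in the libraries with at least 100 CPM of Tg, against 0.182 CPM in the other libraries.

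When the group means were taken out, so that only differences between libraries of the same tissue, age and kind remained, Krt6a was first, at r = 0.89. The genes after it were Muc5b, Dsp, Dsc2, Ppl, Slc5a9, Krt13, Rab11fip1, Serpinb11, Prom2, Krt4, Wwc1, Dsg3, Epha1 and Reg3g, at r = 0.87 to 0.82, of which Krt13 and Krt4 are among the 6 squamous markers. Iyd was at r = 0.73 and Pax8 at r = 0.41 on this measure, and Slc5a5 at -0.14. When the 3 libraries rich in olfactory receptor genes were left out, 3 of these 15 genes stayed among the first 15.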

How the data were processed

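Bulk RNA-seq libraries of mouse larynx, trachea and esophagus were analysed from expected counts per gene, which the authors made before they deposited them by aligning reads to GRCm39 and estimating counts with RSEM 1.3.3 (Bowtie2 2.4.2, per the submitters' processing notes). Expected counts were rounded for edgeR 4.0.16 (R 4.3.3), fitted by quasi-likelihood to 20 groups of tissue, age and kind of library, over genes whose normalized count reached 1 in 2 or more libraries. DESeq2 1.42.0 was an alternative. Levels were expected counts divided by the library total times its median-ratio factor (CPM), with a pseudocount of 1 on the log2 scale. Named genes were the 9 in all libraries, at most 10 list genes past the threshold per contrast, and the 15 genes most like Tg, among genes with a mean of at least 1 CPM and counts in 4 or more libraries. The genes and lists were chosen with earlier results of these data known. Some follicle genes are not reported here and were left out of lists and rankings. The fit was tested on simulated data.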

Additional observations from a re-analysis of the deposited data

Results flagged for a closer look

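Follicle and neighbouring genes were checked in the 4 libraries of each tissue at E15.5 for 1 library far from the other 3. Of 62 such groups 9 were marked, a count given as a description. Chance marks about 1 in 20 only where all 4 libraries are alike, and these were of 2 kinds. Tg and Duoxa2 were chosen with their levels known, and marks in the same library are not independent. In the esophagus, 5 genes were marked in the second index library: Tg at 175 CPM against 1.49 to 5.03 CPM in the others, Duoxa2 at 4.12 CPM against 0 to 0.179 CPM, Duox1 at 77.0 CPM against 6.40 to 11.46 CPM, Duoxa1 at 104.5 CPM against 5.05 to 12.9 CPM, and Ctsl, a lysosomal protease, at 307 CPM against 142 to 162 CPM. Ano1, a chloride channel, was marked in all 3 tissues, at 35.98 CPM in the second short-code larynx library against 15.1 to 17.3 CPM, at 71.4 CPM in the first short-code trachea library against 15.6 to 23.03 CPM, and at 26.6 CPM in the second short-code esophagus library against 18.8 to 19.8 CPM. Dio1 was at 10.8 CPM in the first index trachea library, against 0.166 to 1.78 CPM.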

How the results depend on the processing

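Of the main results, 79 values stayed near the reported one and 9 moved under other settings, and 60 stayed and 12 moved with 1 library left out. For larynx minus trachea at E18.5 (2 calls) there were 4 calls with DESeq2, 0 with both kinds of library together and 1 with the replicate block. Both kinds together gave 1 call for adult against P0 (5 calls). The log2 difference of Tg between E18.5 and E13.5 was 11.04 in the trachea and 9.44 in the esophagus without scaling factors, and 11.90 in the trachea with a pseudocount of 0.1. Likeness within groups kept 3 of 15 genes without the 3 libraries, and CAAG in place of CAAGTG was in 5 promoters. With 1 library left out, calls ranged over 1 to 3 in the esophagus, 0 to 2 in the larynx, 0 to 0 for larynx minus trachea and 0 to 2 for adult against P0. A group then holds 1 library, assumed to vary like the others. Thrsp at P0 against E15.5 turned to -1.07 with both kinds together. Genes of thymus and liver turned direction without 1 library: Prss16 ranged over -7.23 to 0.25 and Ahsg over -11.84 to 0.82 in the trachea, and Prss16 over -6.70 to 1.10 in the esophagus. Cd3e, at -9.05 to 0 in the trachea, lost its change without the first E13.5 library. The cause was not tested. Same-numbered libraries of different tissues correlated above 0.1 in 10 of 18 pairs (r = -0.446 to 0.421), so the numbers were not shown to pair them over all ages. At E13.5 and E18.5 each pair of tissues was above 0.1 (r = 0.213 to 0.306), and with the number within each age as a block both interactions between tissue and age still gave 0 calls.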
